A study of Mus musculus with 9 samples.

Results

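RNA for 10 genes of macrophages was measured in mammary gland number 4 of mouse dams on lactation day 2 (L2). The genes were Csf1, Ccl2, Csf1r, Cd14, Emr1 (the older name of Adgre1, used by the array), Itgam, Mrc1, Cd163, Msr1 and Cd68. They were found by gene name in the array's design, which gave 16 of the 41174 probes that were not controls, and all 10 of the genes among 27962 gene names. A single probe measured each of 6 genes, 2 probes each measured Emr1 and Itgam, and 3 probes each measured Csf1r and Msr1. A gene is described by its brightest probe, and the other probes follow where they differ.

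The arrays held 4 WT dams and 5 hNAG-1 dams, with 1 array for each dam. WT dams carried no transgene, and hNAG-1 dams expressed human NAG-1, also called GDF15, a secreted protein of the TGF-beta superfamily, from a transgene active in all tissues. Both genotypes had the background that the labels spell C57BL/7, and neither received an agent. The study's glands came from breeding dams that had been paired as young females and sampled after the last of a run of litters. Their age on that day is not given in the sources used here, and the study worked mostly with a single transgenic line. Whole glands were pulverised one by one, so a value stands for all cells of the gland. Fewer macrophages and less RNA per macrophage cannot be told apart in such samples. The arrays lay on 3 slides: WT 1 alone on slide 1, hNAG-1 1 to hNAG-1 4 on slide 2, and WT 2 to WT 4 with hNAG-1 5 on slide 3. In hNAG-1 2, hNAG-1 3 and hNAG-1 4, all on slide 2, 59.75% to 64.58% of probes were well above background, against 69.04% to 76.06% in the other 6 dams.

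Macrophages are phagocytes that live throughout the mammary stroma and close to the ducts and alveoli. The cytokine encoded by Csf1 binds the receptor tyrosine kinase encoded by Csf1r and keeps monocytes and macrophages alive, while the chemokine encoded by Ccl2 draws monocytes out of the blood. In the mammary gland, macrophages take part in the branching of ducts, in the growth of alveoli and in the clearing of dead cells when milking ends. Number 4 glands also contain the inguinal lymph node, which is rich in lymphocytes and has macrophages of its own. Whether it was taken out is not given in the sources used here.

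The sequences below identify the probes of Emr1, Itgam and Msr1, which had more than 1 probe each. None is shown for Csf1r. Each line holds the first 30 of the 60 bases of a probe, in lower case, as the array's own design lists them 5′ to 3′. Positions are given on mouse build mm7, as listed by the manufacturer. No annotation of that build was used, so exons were not assigned.
Emr1, A_51_P251768, the brighter probe (chr17:55686649-55686708): ttgtgtttcctatgcactttcttgtggtgt
Emr1, A_52_P364727, the dimmer probe (chr17:55613754-55613813): cctggctttgcatctagcaatggacagctg
Itgam, A_52_P669155, the brighter probe (chr7:124214519-124214578): gaatcgattaacccgtcaaagtacaaaaac
Itgam, A_51_P103007, the dimmer probe (chr7:124213977-124214037): gtctagatggtcagaccaacaccgaagcta
Msr1, A_51_P404846, the brightest of 3 probes (chr8:38396605-38398766, a span longer than the probe): gtgtaggcggatcaagatcagtataactcc
Msr1, A_52_P127130 (chr8:38414609-38414668): gacactgcttgatgttcaactccatacaga
Msr1, A_52_P607128 (chr8:38394471-38394530): aagtcatcttacatccaaaactacacgtat

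Promoter sequence is shown here for 5 of the 10 genes. Of these, 4 (Cd68, Itgam, Mrc1 and Cd163) are used by macrophages as surface or lysosomal proteins, whereas Csf1 encodes the growth factor that acts on macrophages. The other genes, Csf1r and Cd14 among them, are not shown, and the counts of letters below do not cover them. Each line holds the 250 bases before the gene's start in RefSeq on build GRCm38.p6, read on the gene's own strand. Capitals mark GAGGAA, or TTCCTC on the other strand, the purine core that the myeloid transcription factor PU.1 is known to bind.
Itgam (chr7:128062390-128062639, plus strand): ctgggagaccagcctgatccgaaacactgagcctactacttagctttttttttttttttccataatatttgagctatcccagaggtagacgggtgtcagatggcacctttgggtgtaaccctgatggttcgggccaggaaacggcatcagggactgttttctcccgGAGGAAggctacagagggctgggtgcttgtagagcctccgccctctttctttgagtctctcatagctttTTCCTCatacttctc
Cd68 (chr11:69666171-69666420, minus strand): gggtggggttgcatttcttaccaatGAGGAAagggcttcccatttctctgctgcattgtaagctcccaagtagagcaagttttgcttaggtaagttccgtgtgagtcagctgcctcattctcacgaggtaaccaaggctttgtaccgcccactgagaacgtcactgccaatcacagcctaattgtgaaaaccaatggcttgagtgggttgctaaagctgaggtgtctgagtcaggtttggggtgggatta
Mrc1 (chr2:14229164-14229413, plus strand): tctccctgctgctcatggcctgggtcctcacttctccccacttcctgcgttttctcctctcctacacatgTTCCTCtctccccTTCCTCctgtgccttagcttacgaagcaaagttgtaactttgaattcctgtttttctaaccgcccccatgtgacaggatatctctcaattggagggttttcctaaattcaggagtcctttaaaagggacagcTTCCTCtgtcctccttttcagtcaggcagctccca
Cd163 (chr6:124304401-124304650, plus strand): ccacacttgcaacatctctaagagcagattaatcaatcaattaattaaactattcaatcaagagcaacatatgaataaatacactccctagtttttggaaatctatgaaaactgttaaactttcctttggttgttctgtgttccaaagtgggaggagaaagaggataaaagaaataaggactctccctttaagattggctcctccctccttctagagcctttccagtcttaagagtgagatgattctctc
Csf1 (chr3:107760470-107760719, minus strand): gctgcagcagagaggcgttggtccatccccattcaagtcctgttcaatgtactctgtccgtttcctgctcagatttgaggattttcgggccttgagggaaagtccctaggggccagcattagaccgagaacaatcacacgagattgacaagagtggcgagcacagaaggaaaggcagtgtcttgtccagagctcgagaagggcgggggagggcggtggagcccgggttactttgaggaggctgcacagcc

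These letters occurred 3 times before Mrc1, 2 times before Itgam, once before Cd68, and not before Cd163 or Csf1. Of 32851 promoter windows of 250 bases, 23.3% held them at least once on either strand. A match of letters is a description and does not show that a factor was bound.

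None of the 10 genes differed between the genotypes beyond the spread of the dams. With limma, 0 of the 10 genes passed an adjusted p of 0.05, against 0.00243% of all probes, and 0 passed an unadjusted p of 0.05, against 5.62% of all probes. The genotypes overlapped for each of the 10 genes, whereas they did not overlap for 1.38% of all probes. The median log2 fold change of the 10 genes, hNAG-1 over WT, was -0.10, beside -0.02 over all gene names. In all, 7 lay below 0, Cd68 among them at 0.00, as did 52.7% of all gene names, and Csf1, Emr1 and Itgam lay above it. That median was 0.11 when arrays were scaled to their median, where the median over all gene names was 0.19, and it was 0.21 without WT 2. Arrays of the same genotype differed widely. WT 1, the lowest array for 8 of the 10 genes, was the only array on slide 1, so its dam and its slide cannot be told apart. Among WT dams the highest array exceeded the lowest by 1.58-fold for Cd14 and by 7.2-fold for Ccl2, and among hNAG-1 dams by 1.82-fold for Cd163 and by 11.7-fold for Itgam, with the other genes between.

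**Figure D1:**
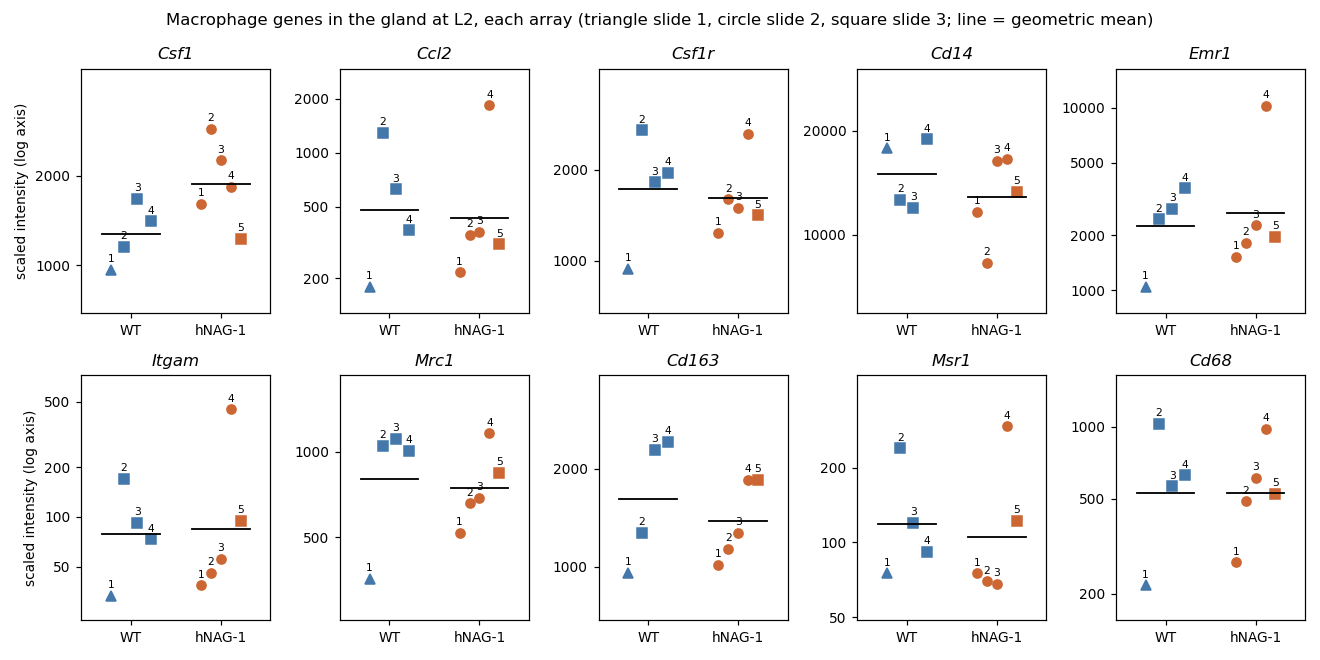
Scaled intensity of the brightest probe of each gene (vertical log axes, arbitrary fluorescence units after scaling) in each of 4 WT and 5 hNAG-1 arrays. The number beside a point is the dam, the symbol is the slide and the line is the geometric mean. WT 1 is the lowest array for 8 of the 10 genes, and hNAG-1 4 the highest for 5.

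The values of the ligands are given first. The growth factor gene Csf1 had scaled intensities of 963, 1150, 1670 and 1400 in WT 1 to WT 4, and of 1610, 2870, 2260, 1840 and 1230 in hNAG-1 1 to hNAG-1 5. In all, 3 of the 5 hNAG-1 dams (hNAG-1 2, hNAG-1 3 and hNAG-1 4) lay above every WT dam, and the remaining pair lay within the WT range. The means were 1300 ± 309 (SD, n = 4) and 1960 ± 631 (SD, n = 5), and the log2 fold change was 0.56 (SE 0.27, 95% confidence interval -0.04 to 1.17). This difference had a p of 0.0641 in limma, 0.654 after Benjamini-Hochberg adjustment, and 0.0873 in an exact permutation test. The 3 high dams were all on slide 2, which held no WT dam, and were the 3 with the fewest probes above background, whose part in the difference was not tested. On slide 3, Csf1 was 1230 in hNAG-1 5, and its 3 WT neighbours were 1150, 1670 and 1400, and with slide as a block the log2 fold change was -0.18.

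Ccl2, which encodes the monocyte chemoattractant MCP-1, varied far more between dams than between genotypes. Its scaled intensity was 179, 1290, 624 and 370 in WT 1 to WT 4, and 216, 350, 362, 1840 and 309 in hNAG-1 1 to hNAG-1 5. WT 2 and hNAG-1 4 were high, WT 1 and hNAG-1 1 were low, and 4 of the 5 hNAG-1 dams fell inside the WT range. The log2 fold change was -0.14 (SE 0.71, 95% confidence interval -1.74 to 1.45, limma adjusted p = 0.956). It was 0.33 without WT 2 and -1.11 with slide as a block, neither of which passed the unadjusted threshold. Ccl7 and Ccl12, which encode related monocyte chemokines, shared those 2 high dams: Ccl7 was 767 in WT 2 and 866 in hNAG-1 4, and 34.7 to 162 in the other WT dams and 76.2 to 143 in the other hNAG-1 dams. Ccl12 was 1390 in WT 2 and 1780 in hNAG-1 4.

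Of the receptors, Csf1r, which receives the Csf1 signal and defines the mononuclear phagocyte lineage, had intensities of 939, 2700, 1820 and 1960 in WT 1 to WT 4. In hNAG-1 1 to hNAG-1 5 it was 1240, 1600, 1500, 2630 and 1410. Every hNAG-1 value lay between WT 1 and WT 2, and the log2 fold change was -0.10 (SE 0.32, 95% confidence interval -0.83 to 0.63). A second probe, A_52_P602091, gave 0.06 (SE 0.36). A dimmer one, A_52_P570471, gave -1.36 (SE 0.63, limma p = 0.0569, adjusted p = 0.654, exact permutation p = 0.103) from 209, 96, 113 and 57.7 in WT 1 to WT 4 and 78.3, 14.7, 28.4, 30.8 and 124 in hNAG-1 1 to hNAG-1 5. This dim probe was highest in WT 1, the dam in which the other pair of Csf1r probes was lowest, and it was well above background in 3 of 5 hNAG-1 dams. It read 14.7 to 30.8 in hNAG-1 2, hNAG-1 3 and hNAG-1 4, the 3 arrays with the fewest probes above background, and 57.7 to 209 in the others. The part of that share of dim probes was not tested. The log2 fold change of this dim probe was 0.54 with slide as a block, so the 3 probes of Csf1r do not give 1 direction.

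Cd14, the co-receptor that hands bacterial lipopolysaccharide to TLR4 and is also made by mammary epithelium, was 17800, 12600, 11900 and 18900 in WT 1 to WT 4. In hNAG-1 1 to hNAG-1 5 it was 11600, 8300, 16400, 16600 and 13300. Both hNAG-1 1 and hNAG-1 2 lay below every WT dam, and the log2 fold change was -0.22 (SE 0.25, 95% confidence interval -0.78 to 0.34). Over all 9 dams Cd14 spanned 2.27-fold, the least of the 10 genes, and WT 1, the lowest array for 8 of them, was the array next to the highest for Cd14.

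Emr1 encodes F4/80, the surface protein most used to mark mouse macrophages. It had a scaled intensity of 1050, 2450, 2800 and 3630 in WT 1 to WT 4, and of 1530, 1820, 2280, 10200 and 1970 in hNAG-1 1 to hNAG-1 5. A single dam, hNAG-1 4, stood above all others, and the other 4 hNAG-1 dams lay inside the WT range. The means were 2480 ± 1070 (SD, n = 4) and 3560 ± 3730 (SD, n = 5), and the log2 fold change was 0.22 (SE 0.58, 95% confidence interval -1.09 to 1.53, limma adjusted p = 0.907). Without hNAG-1 4 it was -0.27, and without WT 1 it was -0.15. The dimmer Emr1 probe, A_52_P364727, was well above background in 1 of 4 WT and 1 of 5 hNAG-1 dams, with 61.8 in hNAG-1 4 and 4.41 to 19.7 elsewhere.

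Itgam encodes CD11b, the alpha chain of the integrin Mac-1 of monocytes, macrophages and neutrophils. Its values were 33.2, 170, 92.1 and 73.2 in WT 1 to WT 4 and 38.5, 45.9, 55.6, 450 and 94.8 in hNAG-1 1 to hNAG-1 5. The order resembled that of Emr1, with hNAG-1 4 far above the rest and WT 1 lowest. The log2 fold change was 0.10 (SE 0.74) and became -0.51 without hNAG-1 4. The other Itgam probe, A_51_P103007, was also highest in hNAG-1 4, at 126, but its log2 fold change was -0.71 (SE 0.52, limma p = 0.2, exact permutation p = 0.254), and hNAG-1 2 and hNAG-1 3 read 17.4 and 25.2. Itgb2, which encodes the beta chain that pairs with CD11b, was 1900 in WT 2 and 1190 in hNAG-1 4, and 329 to 570 in the other 7 dams.

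Mrc1 encodes the mannose receptor CD206 of tissue macrophages, and it was 357, 1050, 1110 and 1010 in WT 1 to WT 4 and 518, 659, 690, 1160 and 843 in hNAG-1 1 to hNAG-1 5. WT 1 stood below all others, the other 3 WT dams were nearly level, and 4 of the 5 hNAG-1 dams lay below those 3. The log2 fold change was -0.11 (SE 0.37, 95% confidence interval -0.95 to 0.73), and -0.50 without WT 1, which did not pass the unadjusted threshold.

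Cd163, which encodes the receptor that clears haemoglobin bound to haptoglobin, was 959, 1270, 2280 and 2410 in WT 1 to WT 4 and 1020, 1130, 1270, 1840 and 1850 in hNAG-1 1 to hNAG-1 5. All hNAG-1 values lay within the WT range. Here hNAG-1 4 and hNAG-1 5 were level, and WT 2 was low, unlike in Ccl2, Itgam or Cd68. The log2 fold change was -0.22 (SE 0.32, 95% confidence interval -0.95 to 0.51).

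Msr1 encodes the class A scavenger receptor, which takes up modified lipoproteins. Its brightest probe read 75, 239, 119 and 91.7 in WT 1 to WT 4 and 75.2, 69.6, 68.1, 293 and 122 in hNAG-1 1 to hNAG-1 5. WT 2 and hNAG-1 4 were again high, and hNAG-1 1 to hNAG-1 3 lay near or below the lowest WT dam. The log2 fold changes of its 3 probes were -0.17 (SE 0.50), -0.34 (SE 0.62) and -0.25 (SE 0.53), all below 0 and none past the unadjusted threshold, and that of the brightest probe was 0.04 with median scaling.

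Cd68 encodes macrosialin, a glycoprotein of lysosomes that is abundant in phagocytes. It was 217, 1030, 563 and 627 in WT 1 to WT 4 and 270, 488, 612, 983 and 524 in hNAG-1 1 to hNAG-1 5. The genotypes spanned nearly the same range, with a log2 fold change of 0.00 (SE 0.48, 95% confidence interval -1.07 to 1.07). Intervals of this width leave room for differences of more than 2-fold in either direction, which these 9 arrays could not tell from 0.

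**Figure D2:**
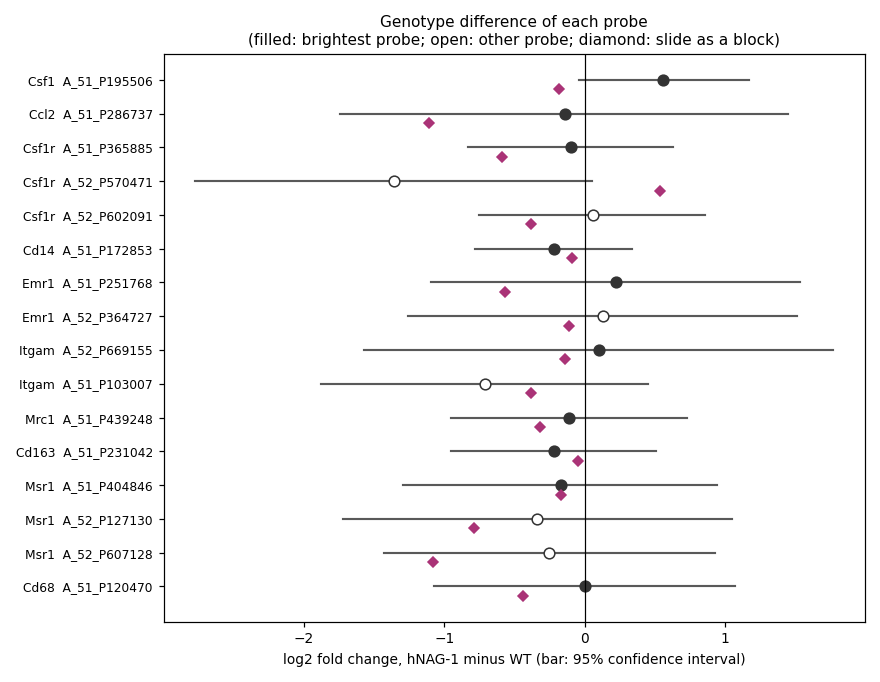
Log2 fold change (horizontal axis, hNAG-1 minus WT) of each of the 16 probes, with its 95% confidence interval over 9 arrays. Circles are the fit over all arrays, filled for the brightest probe of a gene, and diamonds use slide as a block. Every interval spans 0, and with slide as a block all 10 brightest probes lie below 0, Csf1 from 0.56 to -0.18 and Ccl2 from -0.14 to -1.11.

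Slide 3 is the only slide with both genotypes, so the values with slide as a block rest on hNAG-1 5 against 3 WT dams. All 10 genes were below 0 there, with a median log2 fold change of -0.25, whereas the median over all gene names was 0.18 and 31.7% of gene names were below 0. The dam hNAG-1 5 lay below each of WT 2, WT 3 and WT 4 for 5 of the 10 genes (Emr1, Csf1r, Cd68, Mrc1 and Ccl2), against 11.8% of all probes. For Csf1, Itgam, Cd14, Cd163 and Msr1 it fell among the WT dams. None of the 10 differences passed the unadjusted threshold in limma with slide as a block, against 7.38% of all gene names taken at their brightest probe, and a single hNAG-1 dam gives no spread of its own genotype. Among the 30 other macrophage markers, 27 were below 0 in the same fit, with a median of -0.59.

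Levels of 7 of the other 9 genes followed those of Emr1 from dam to dam at r of 0.64 or above, as did 2.30% of all gene names. Over the 9 arrays, log2 Emr1 correlated with log2 Itgam at r = 0.88 (rho = 0.80), with Ccl2 at 0.82 (rho = 0.92), with Csf1r at 0.80 (rho = 0.85), with Mrc1 at 0.79 (rho = 0.93), with Cd68 at 0.77 (rho = 0.87), with Msr1 at 0.72 (rho = 0.60) and with Cd163 at 0.64 (rho = 0.82). By exact permutation over pairings, the p-values of r for these 7 genes ran from 0.00371 to 0.0446 and those of rho from 0.00075 to 0.0968. After Benjamini-Hochberg adjustment over the 9 relations, r passed 0.05 for 6 of the genes, the lowest of them Msr1, and 1.49% of all gene names had an r with Emr1 at least as high as that of Msr1. Cd163 had an adjusted p of 0.0573 in that exact permutation test. By the exact permutation test of rho, Cd163 passed (adjusted p = 0.0194) and Msr1 did not (adjusted p = 0.124). Csf1 (r = 0.25, rho = 0.23) and Cd14 (r = 0.28, rho = 0.33) did not pass, with exact permutation p-values of r of 0.522 and 0.456. Among these genes, those most like Emr1 over all 9 arrays were thus Itgam by r and Mrc1 by rho.

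Without WT 1 and hNAG-1 4, the arrays farthest from the Emr1 median, 0 of the 9 relations passed after adjustment over 7 arrays, and r was 0.83 for Mrc1, 0.81 for Cd163, 0.65 for Cd14, 0.63 for Csf1r and for Cd68, 0.50 for Itgam, 0.46 for Ccl2, 0.29 for Msr1 and -0.30 for Csf1. Of all gene names, 0.565% then reached the r of Mrc1, 9.82% that of Itgam and 24.5% that of Msr1. The exact permutation p of r was then 0.0216 for Mrc1 and 0.0272 for Cd163 before adjustment. Over the 7 arrays rho was 0.89 for Cd163, 0.86 for Mrc1, 0.82 for Cd68 and for Ccl2, 0.79 for Csf1r, 0.64 for Cd14, 0.57 for Itgam, 0.36 for Msr1 and -0.29 for Csf1. Fewer arrays also make the test less able to pass. Slides held at most 4 arrays, too few for a correlation within a slide, and each array gives both levels of a pair from the same RNA.

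**Figure D3:**
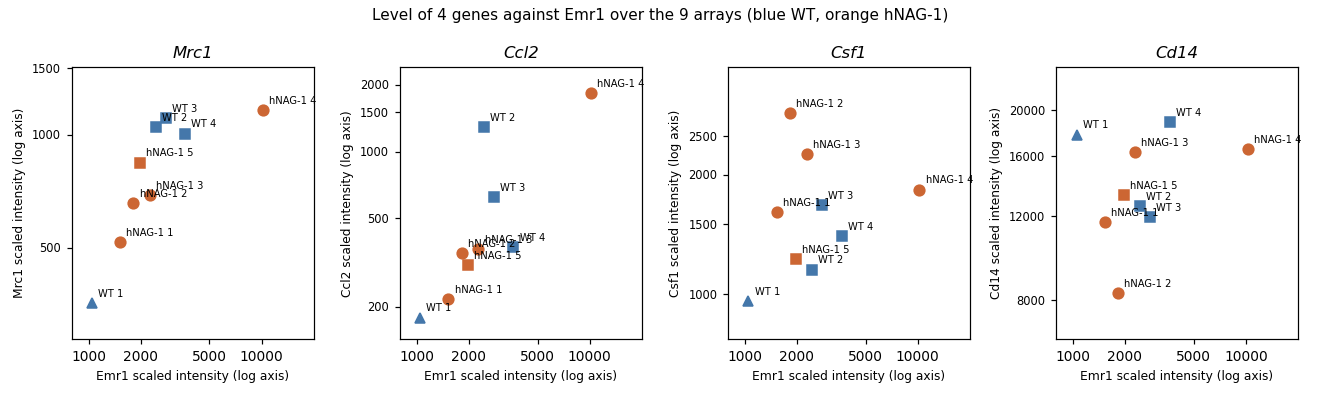
Scaled intensity of Mrc1, Ccl2, Csf1 and Cd14 (vertical log axes) against that of Emr1 (horizontal log axis) in 9 arrays, blue for WT and orange for hNAG-1, with symbols for slides as in the plot by genotype. Mrc1 and Ccl2 run from WT 1 at the lower left to hNAG-1 4 at the upper right (r = 0.79 and 0.82), whereas Csf1 and Cd14 show no such order (r = 0.25 and 0.28).

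The 30 other macrophage markers repeated the pattern of dams. Each was well above background in all arrays of at least 1 genotype, so genes that mark macrophages were measurable in this tissue. Their summed intensity was 102400, 251300, 200000 and 174300 in WT 1 to WT 4 and 118400, 114400, 127700, 328300 and 133900 in hNAG-1 1 to hNAG-1 5. Lyzs, the lysozyme gene of myeloid cells, gave 47.3% to 59.5% of each sum, and without it the sums were 45880 in WT 1, 113100 in WT 2, 142000 in hNAG-1 4 and 57220 to 80990 in the other 6 dams. Of the 30, 21 were highest in hNAG-1 4, against 13.4% of all gene names, and 14 were lowest in WT 1, against 6.9%. Tyrobp, which encodes the adaptor DAP12 of myeloid receptors, was 2720 in WT 1 and 8400 in hNAG-1 4, and C1qa, a chain of complement C1q made by macrophages, was 1430 and 6720.

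By genotype, 21 of these 30 markers lay below 0 and 9 above, beside 52.7% of all gene names below it, with a median log2 fold change of -0.13, which was 0.08 when arrays were scaled to their median and 0.11 without WT 2. Of the 30, 2 were lower in hNAG-1 dams at an unadjusted p under 0.05, against 4.42% of all probes, and neither passed adjustment. Gpnmb, which encodes a membrane glycoprotein of macrophages with lipid and lysosomal load, was 97.3, 126, 188 and 94.3 in WT 1 to WT 4 and 67.4, 47.7, 40.7, 95.4 and 54.6 in hNAG-1 1 to hNAG-1 5. In hNAG-1, 4 of the 5 dams lay below every WT dam, and its log2 fold change was -1.06 (SE 0.30, limma p = 0.00576, adjusted p = 0.654, exact permutation p = 0.0238). It was -1.26 with slide as a block. Another Gpnmb probe pointed the other way, with a log2 fold change of 0.32 (SE 0.22).

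Trem2, which encodes a lipid-sensing receptor that signals through DAP12, was 293, 352, 656 and 527 in WT 1 to WT 4 and 231, 210, 293, 185 and 324 in hNAG-1 1 to hNAG-1 5. Its log2 fold change was -0.84 (SE 0.27, limma p = 0.0133, adjusted p = 0.654, exact permutation p = 0.0317). With slide as a block it was -0.61 and no longer passed that threshold in limma. Its other probe gave -0.64 (SE 0.34). Trem2 was the only marker of the 30 that was lowest in hNAG-1 4. The list's lowest fold change was that of Timd4, a receptor for phosphatidylserine (-1.46, SE 1.11), which read 1650 in WT 2 and 27.7 to 285 elsewhere. Its highest was that of Fcgr1, the high-affinity receptor for IgG (0.25, SE 0.49).

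Around the CSF1 receptor pathway, 0 of 12 colony stimulating factors and myeloid regulators passed the unadjusted threshold, with a median log2 fold change of -0.05. With median scaling the median was 0.16. Il34, which encodes the other ligand of the CSF1 receptor, was 782 to 1190 in WT and 924 to 1400 in hNAG-1 dams. Csf3 had a log2 fold change of -0.03 (SE 0.33), and Csf2 was not well above background on any array. The lowest value was that of Irf8, a myeloid and B cell transcription factor (-0.79, SE 0.60), which was 6350 in WT 2 and 624 to 1700 in the other dams. The highest was that of Cebpa (0.41, SE 0.21), the only one of the 12 to pass that threshold with median scaling, against 8.62% of all gene names, or without hNAG-1 4, against 3.94%.

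Of the 12 monocyte chemokines and receptors, 6 lay on each side of 0 and none passed. Ccl5, also made by T cells, was lowest (-0.81, SE 0.58) and Ccl4 highest (0.40, SE 0.61). Ccr2, which encodes the receptor of the Ccl2 product and was counted among the 30 macrophage markers, had a log2 fold change of -0.15 (SE 0.42) and was highest in hNAG-1 4, at 629. With slide as a block the median of the 12 was -0.96.

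Among 12 genes of lipopolysaccharide recognition, the partners of Cd14, 2 were higher in hNAG-1 dams at an unadjusted p under 0.05, against 1.2% of all probes, and neither passed adjustment. None of the 12 passed without scaling between arrays, against 5.65% of all gene names, with slide as a block, or without WT 2, against 4.54%. Lbp, which encodes the plasma protein that delivers lipopolysaccharide to CD14, was 18400, 15500, 15600 and 19400 in WT 1 to WT 4 and 17000, 31100, 25400, 24200 and 23400 in hNAG-1 1 to hNAG-1 5. For Lbp, 4 of the 5 hNAG-1 dams exceeded every WT dam, hNAG-1 5 on slide 3 among them. Its log2 fold change was 0.47 (SE 0.19, limma p = 0.0338, adjusted p = 0.654, exact permutation p = 0.0397) and 0.48 with slide as a block. Ticam1, which encodes the TRIF adaptor of TLR4, had 0.43 (SE 0.19, limma p = 0.049, adjusted p = 0.654, exact permutation p = 0.0635). With slide as a block Ticam1 had 0.17, and hNAG-1 5 (877) lay inside the WT range of 593 to 929.

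Tlr4 itself was 1290 to 1960 in WT and 1170 to 1870 in hNAG-1 dams, a log2 fold change of -0.10 (SE 0.21). Ly96, which encodes its partner MD-2, ranged from 4050 to 21700 within the hNAG-1 dams alone. The lowest value of the list was that of Cd180, a TLR relative of B cells (-1.38, SE 0.74), which passed the unadjusted threshold without hNAG-1 4 (-1.75), against 3.94% of all gene names, and without WT 2 and hNAG-1 4 (-0.97), against 3.16%. Nfkb1 passed without WT 1 (-0.41), against 5.22%. For scavenger receptors and integrin partners, 0 of 12 and 0 of 8 passed the unadjusted threshold, but Colec12 (-0.53) and Scara3 (-0.50) passed without WT 1, against 5.22% of all gene names, and Itgal (-0.48) without WT 2 and hNAG-1 4, against 3.16%. Those 3 and Nfkb1 are named after their values were seen. Among integrin partners, log2 fold changes ran from -0.86 (SE 0.60) for Itga4 to 0.14 (SE 0.17) for Itgb1. Marco, a scavenger receptor of lymph node and spleen macrophages, had -1.36 (SE 1.56), with 60600 in WT 2 and 28700 in hNAG-1 4 against 308 to 3400 in the other dams, and the highest scavenger receptor was Scarb1, which binds high-density lipoprotein (0.39, SE 0.24).

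Markers of other cells varied between dams too, some lists with the same extreme dams as the 10 genes and some not. WT 1, the lowest dam for the mean log2 level of the 10 genes, was also the lowest for adipocyte, eosinophil and mast cell, and endothelium and fibroblast markers, but the second highest for lymph node lymphocytes. hNAG-1 4, the highest for the 10 genes, was the highest for neutrophil markers. The 16 genes of lymph node lymphocytes had a summed intensity of 80140 in WT 2, of 12740 in WT 1 and 11680 in hNAG-1 4, and of 1946 to 4175 in the other 6 dams. In WT dams the sum thus spanned 2627 to 80140, and in hNAG-1 dams 1946 to 11680. All 16 had a log2 fold change below 0, beside 52.7% of all gene names, with a median of -1.26, and 2 of them, Cr2 (-0.75, SE 0.31) and Cd2 (-1.50, SE 0.66), passed the unadjusted but not the adjusted threshold in limma, against 4.42% of all probes. By exact permutation their p-values were 0.0952 and 0.0714, Cr2 was 0.22 with slide as a block, and 0 of the 16 passed with slide as a block, without WT 1, where the median was -1.18, or without WT 2. Cd2 passed with normexp background correction, without scaling, without hNAG-1 4 (-1.70) and without WT 2 and hNAG-1 4 (-0.99), and Cr2 with quantile, median or no scaling, settings under which 2.69% to 8.62% of all gene names passed. Cd79a, named after its values were seen, passed with normexp (-0.54). In hNAG-1 2, hNAG-1 3 and hNAG-1 4, the dams with the fewest probes above background, Cr2 was 59.3 to 77.0, against 121 to 174 in the others. The 16 ran from -1.72 (SE 1.08) for the B cell gene Cd22 to -0.17 (SE 0.24) for the T cell gene Cd3e. Without WT 2 the median was -0.42. Of the 16, 14 were highest in WT 2, the dam that was also high for Ccl2, Csf1r, Cd68, Itgam and Msr1 but not for Emr1, Cd163 or Csf1. The part of the lymph node in these values was not tested. Without WT 2, 2 of the 10 macrophage genes lay below 0, beside 57.4% of all gene names, and without WT 2 and hNAG-1 4 together 8 did, beside 56.7%, with a median of -0.16. None passed the adjusted threshold in either.

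The summed intensity of 8 genes of secretory epithelium was 1132000 to 2071000 in WT and 1467000 to 2155000 in hNAG-1 dams, lowest in WT 2. The whey protein gene Wap, with the highest signals of the list, was saturated on 2 arrays, so the sums are bounds there. All 8 lay above 0, from 0.04 for Csn1s1 to 0.35 for Lalba, and none passed, but 6 of the 8 lay below 0 without scaling between arrays, as did 71.8% of all gene names, and 7 without WT 2, beside 57.4%. Across all 8 adipocyte markers the median log2 fold change was 0.36, from 0.03 for Fabp4 to 1.00 for Retn, with WT 1 lowest at a sum of 417200. Cfd gave 29% to 47.3% of each sum, and without it WT 2 was lowest, at 291500, beside 296200 in WT 1. Retn passed the unadjusted threshold with normexp (0.97), against 2.69% of all gene names, and with median scaling (1.22), against 8.62%. The median was 0.07 without WT 1 and 0.15 with slide as a block. The 9 markers of endothelium and fibroblasts had a median of 0.24, from 0.06 for Dcn to 0.34 for Col3a1, and of -0.12 with slide as a block. S100a9, a gene of neutrophils, which also carry CD11b, was 71200 in hNAG-1 4 and 504 to 3700 in the other 8 dams. The part of these other cells in the values of the 10 genes was not tested.

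**Figure D4:**
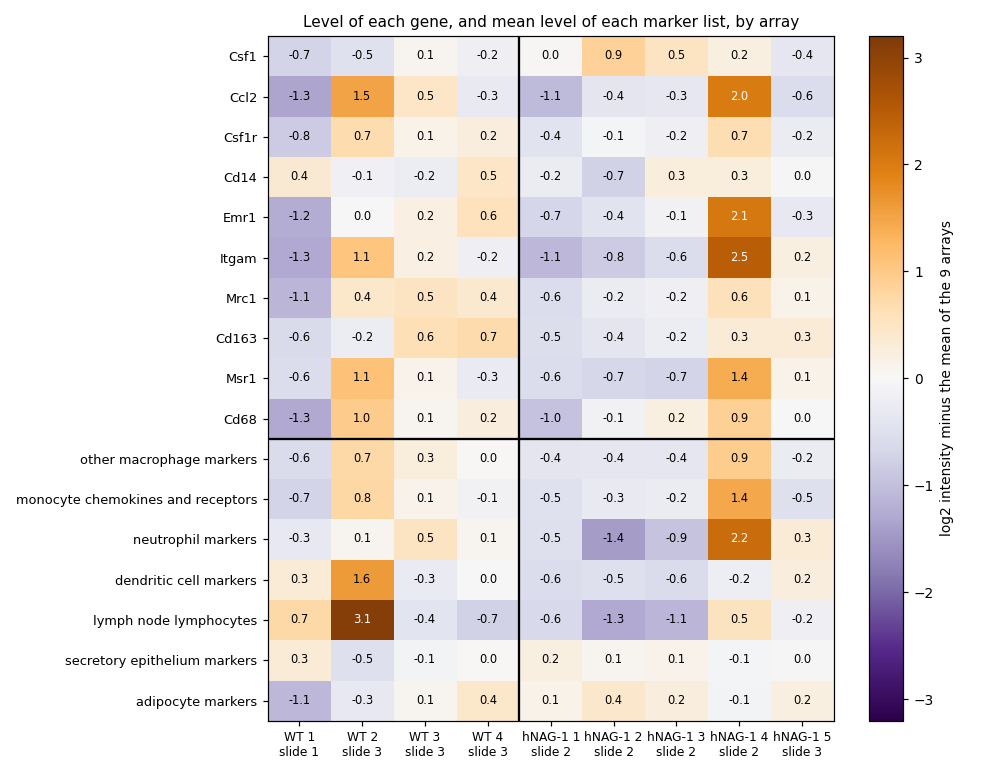
Log2 intensity of each of the 10 genes, and below the line the mean over the genes of each marker list, minus the mean of the 9 arrays (colour and number), for each dam (columns, with its slide). hNAG-1 4 is high for macrophage, chemokine and neutrophil genes, WT 2 for lymph node lymphocytes and dendritic cells, and WT 1 is low for most of the 10 genes but not for Cd14.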

How the data were processed

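RNA from 9 glands was Cy3-labelled and hybridised to 1-colour Agilent Whole Mouse Genome arrays. The authors deposited scanner output as intensity per feature (Agilent Feature Extraction 9.5), background-subtracted and not scaled between arrays. For testing, the study states ANOVA, run in OmicSoft software.

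Here the 1639 control features were left out, repeated features were averaged per probe, and the processed signal of every array was scaled to its 75th percentile (508.6 to 1133 before scaling, with 59.75% to 76.06% of probes well above background) before log2. Genotypes were compared with limma 3.58.1 in R 4.3.3 (lmFit, eBayes, two-sided, 41174 probes, Benjamini-Hochberg) and exact two-sided permutation tests, whose lowest possible p is 0.0079365. The number of arrays limits precision. In simulated data of this comparison with 41174 probes, 76.5% of 2-fold changes passed an unadjusted and 14% an adjusted p of 0.05. Those changes were placed on probes drawn from the whole array, so the shares are not those of the macrophage genes. Among these, Emr1, Ccl2 and Itgam had an SE of 0.58, 0.71 and 0.74 for the log2 fold change.

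The 10 genes and the marker lists were chosen with earlier results of these data known, and 171 of 173 list entries were matched. Named genes are the 10 genes, the lowest and highest fold change of each list among probes well above background on all arrays of a genotype, list genes with an unadjusted p under 0.05, and defining genes of the pathway. Alternatives covered background correction, scaling, filters, slide, replicate number, probe choice and leaving out arrays. Sequences came from the array's design and RefSeq (GRCm38.p6).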

Additional observations from a re-analysis of the deposited data

Results flagged for a closer look

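In all, 3 values stood far from the rest of their genotype, among 20 sets of values tested, 1 for each gene and genotype, where chance alone would mark about 1 in 20. The sets come from the same arrays and are not independent, and the values of Emr1 and Ccl2 are from the same dam. Emr1 in hNAG-1 4 (10200) lay above the other hNAG-1 dams by a gap of 0.79 of the group's log2 range. Ccl2 in hNAG-1 4 (1840) lay above by a gap of 0.758 of that range. Mrc1 in WT 1 (357) lay below the other WT dams by a gap of 0.914 of the range. Without hNAG-1 4 the log2 fold change was -0.27 for Emr1 and -0.66 for Ccl2, and without WT 1 it was -0.50 for Mrc1.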

How the results depend on the processing

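No alternative brought any of the 10 genes past an adjusted p of 0.05. An unadjusted p under 0.05 was reached by 1 gene, Csf1, with normexp background correction (0.54, against 2.69% of all gene names), median scaling (0.78, against 8.62%), trend and robust estimation (0.56, against 6.09%) and the replicate block (0.72, against 13.7%), and by 0 to 1 when single arrays were left out, where Csf1 ranged from 0.41 to 0.72 and passed without WT 3 (0.70, against 3.96%) and without hNAG-1 5 (0.72, against 14.9%). The replicate numbers do not pair the dams: deviations correlated at 0.28, -0.20, -0.14 and -0.31, and 2 of 8 dams correlated best with their own number. That block gave a median of -0.04 and drops hNAG-1 5, which has no WT partner. Scaling to the median moved the median of all probes by 0.21 and no scaling moved it by -0.15. With median scaling the median of the 10 genes turned to 0.11, 2 genes lay below 0, beside 32.3% of all gene names, the other macrophage markers had a median of 0.08, and Csf1r (0.11), Mrc1 (0.10), Ccl2 (0.07) and Msr1 (0.04) changed sign. Msr1 was 0.02 with quantile normalization, Itgam -0.05 without scaling and Emr1 -0.04 with array weights. With slide as a block, and on slide 3 alone, Emr1 was -0.57, Csf1 -0.18 and Itgam -0.14. Leaving out WT 2 and hNAG-1 4 together, chosen after seeing the data, gave -0.23 for Emr1 and -0.14 for Itgam. Itgam was -0.31 as a mean over probes and -0.71 by its other probe, and Csf1r was 0.06 by another probe. Leaving out single arrays gave -0.39 to 0.21 for the median of the 10 genes, 2 to 9 genes below 0, -0.37 to 0.11 for the other macrophage markers, -1.83 to -0.42 for lymph node lymphocytes, -0.27 to 0.45 for Emr1, -0.51 to 0.47 for Itgam, -0.40 to 0.11 for Csf1r, -0.50 to 0.05 for Mrc1, -0.66 to 0.33 for Ccl2, -0.54 to 0.17 for Msr1, -0.47 to -0.03 for Cd163 and -0.33 to -0.07 for Cd14. Cd163 was -0.61 with array weights and -0.05 with slide as a block, and none of its values passed an unadjusted p of 0.05. The relations with Emr1 that passed by r numbered 6 of 9, 7 without scaling between arrays, where Cd163 passed too, and 0 without the 2 arrays farthest from its median. Cd68, at 0.00 with all arrays, has no direction to keep and ranged from -0.43 to 0.32 when single arrays were left out, and was 0.21 with median scaling and -0.44 with slide as a block. Over the 18 alternatives that can move a fold change, 134 of 162 values for the other 9 genes kept their direction and side of the threshold. The causes were not tested.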

Other observations

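Among 11 neutrophil markers, 7 were highest in hNAG-1 4, as were 9 of the 12 monocyte chemokines and receptors, against 13.4% of all gene names. Both counts take in dim probes, Elane among them. Of the 11 and the 12, 7 and 11 were well above background on all arrays of at least 1 genotype. S100a9, which encodes a calcium-binding alarmin of neutrophils and monocytes, was 71200 in hNAG-1 4, 504 to 1010 in the other hNAG-1 dams and 557 to 3700 in WT dams. S100a8, its partner, was 9020 in hNAG-1 4 and 455 to 1570 elsewhere, with the list's highest log2 fold change among those well above background (0.32, SE 0.76). Mpo, Prtn3, Ltf and Cxcr2 were not highest in that dam. Il1b, of the macrophage activation list, which encodes the inflammatory cytokine interleukin-1 beta, was 1990 in hNAG-1 4 and 190 to 485 elsewhere (0.29, SE 0.65). Of the neutrophil markers none passed the unadjusted threshold in limma by genotype, and their median log2 fold change was 0.02, which was -0.13 without scaling between arrays and -0.57 without WT 2 and hNAG-1 4. With median scaling Elane passed (0.60), against 8.62% of all gene names, but it was well above background on 0 of the 9 arrays. Cxcr2, a neutrophil chemokine receptor, was the lowest (-1.93, SE 0.97), and passed without scaling between arrays (-2.08), against 5.65% of all gene names. It was well above background in 3 of 5 hNAG-1 dams, and with slide as a block it was 1.23, where hNAG-1 5 read 319 against 117 to 155 in WT 2 to WT 4.

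Among 14 genes of macrophage activation, 0 passed the unadjusted threshold in limma. With slide as a block 2 were higher in hNAG-1 at that threshold, Nos2 (1.00) and Ptgs2 (1.22), against 7.38% of all gene names in either direction, and both were well above background on 0 of the 9 arrays. Without hNAG-1 4, 3 were lower, the close paralogs Chi3l3 (-1.42) and Chi3l4 (-1.55), whose probes may share signal, and Socs3 (-1.53), against 3.94%. Chi3l4 was well above background in 2 of 5 hNAG-1 dams, so its value rests partly on dim readings. Socs3 also passed with normexp background correction (-1.15), without scaling between arrays (-1.32) and without WT 2 and hNAG-1 4 (-1.37), against 2.69%, 5.65% and 3.16%, but not with slide as a block (-1.25). With median scaling Ptgs2 passed (0.67), against 8.62%. Of the 5, all but Socs3 are named after their values were seen. Socs3, the lowest and a feedback inhibitor of cytokine signalling, was 6790, 4200, 1820 and 1630 in WT 1 to WT 4 and 1060, 902, 1320, 3560 and 976 in hNAG-1 1 to hNAG-1 5. In hNAG-1, 4 of the 5 dams lay below every WT dam, with a log2 fold change of -1.17 (SE 0.53, limma p = 0.0534, adjusted p = 0.654, exact permutation p = 0.111). All 10 dendritic cell markers lay below 0, beside 52.7% of all gene names, the lowest Ccr7 (-1.95, SE 1.11) and the highest Fscn1 (-0.05, SE 0.30), with a median of -0.43, but 7 did with quantile normalization, 8 with median scaling, 7 when slide was a block and 7 with normexp background correction, where the median was -0.18. Only 6 of the 10 were well above background on all arrays of at least 1 genotype, so some of these signs rest on dim probes. WT 2 was the highest array for 9 of the 10, against 10.7% of all gene names. Without WT 2, 7 lay below 0, beside 57.4% of all gene names. The median of the 10 was -0.22 without WT 2 and hNAG-1 4 and -0.05 with slide as a block, where that of all gene names was 0.18. Flt3, the receptor tyrosine kinase of dendritic cell precursors, was the only one past the unadjusted threshold (-1.41, SE 0.43, limma p = 0.00863, adjusted p = 0.654, exact permutation p = 0.0397), against 4.42% of all probes lower, and it was -0.05 with slide as a block. Flt3 was well above background in 3 of 5 hNAG-1 dams, and with normexp background correction its log2 fold change was -0.54. It read 21.3 to 24.4 in hNAG-1 2, hNAG-1 3 and hNAG-1 4, the 3 arrays with the fewest probes well above background, and 46.0 to 131 in the others. In the same 3 arrays Cxcr2 read 6.39 to 26.0, against 98.2 to 319, and Ccr3 38.2 to 81.1, against 140 to 221. The part of that share of dim probes in these values was not tested. In 9 eosinophil and mast cell markers none passed, but Ccr3 did without scaling between arrays (-1.20), against 5.65% of all gene names. They ran from -1.05 for Ccr3 to 0.29 for Cpa3 among those well above background, and Ccr3 was 0.32 with slide as a block.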
